A study of Mus musculus with 79 samples.

Results

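The clustered protocadherins of the mouse are encoded in 3 neighbouring gene clusters on the forward strand of chromosome 18. In the GRCm38 build the alpha cluster spans 36930184 to 37187661, the beta cluster 37264938 to 37524479 and the gamma cluster 37661793 to 37841873. They were taken from the deposited expression table by name, and 57 of its 35269 entries qualified: 14 alpha, 22 beta and 21 gamma entries. The 57 entries carry 56 identifiers, since 2 alpha entries named Pcdha11 have the same deposited identifier but start at 37005203 and 37010712. The second matched another gene model by its coordinates and was left out of the tests.

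The clustered protocadherins are cell adhesion molecules, many of which bind their own kind on the neighbouring cell. In neurons, each alpha and gamma transcript starts at one of many promoters, and the chosen variable exon is spliced to exons that the whole cluster shares, while each beta gene is a complete gene with a coding exon of its own. Promoter choice depends on CTCF and cohesin and on DNA methylation, and it gives neighbouring neurons different surface identities. The C-type members (Pcdhac1, Pcdhac2, Pcdhgc3, Pcdhgc4 and Pcdhgc5) lie at the ends of the alpha and gamma clusters and are known to be chosen less randomly.

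Polyadenylated RNA was measured by strand-specific sequencing in 79 libraries from 4 mouse embryonic stem cell (ESC) lines. The DNMT knockout (KO) lacks the DNA methyltransferases Dnmt1, Dnmt3a and Dnmt3b, and the TET KO lacks the methylcytosine dioxygenases Tet1, Tet2 and Tet3. Each was compared with the wild-type (WT) line it was made from, so that every genotype rests on 1 line, and the effect of a deletion cannot be told apart from other differences of its line. The cells were ESCs kept in 2i/LIF medium (day 0), epiblast-like cells (EpiLC) at day 1 or 2, and embryoid bodies (EB) at day 2, 4, 6 or 8. This gives 28 groups, 23 with 3 libraries and 5 with 2 (DNMT WT ESC, DNMT WT EpiLC day 1, DNMT KO EB day 2, DNMT WT EB day 4 and TET KO EB day 2). Whether replicates were separate cultures is not in the labels, and p-values therefore cover only the spread among these libraries, which may be technical. In whole cultures such as these, fewer cells of a type and less RNA per cell cannot be told apart.

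The libraries held 7.76 to 13.9 M reads on genes (median 11.2 M). Dnmt1 stood at 3.63 to 6.49 RPKM (reads scaled to gene length and library size) in the DNMT KO libraries and at 39.4 to 63.2 in DNMT WT, with no overlap. Dnmt3a and Dnmt3b were lower in DNMT KO than in DNMT WT in each of the 7 states, with no overlap within a state. In TET KO, Tet1 and Tet3 lay wholly below TET WT in 5 states each and Tet2 in 3, and Tet2 lay wholly above it at EB day 6 and day 8 (2.73 to 3.08 RPKM against 1.69 to 2.35 at day 8). No source used here states which exons were deleted. Replicate 2 of TET WT EB day 4 had 12.2% of its reads on 1 gene, Gm42418, against at most 2.21% on any gene in the other libraries.

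Most reads of the alpha and gamma entries lay on exons that all members of the cluster share. The 14 alpha entries have 3 exons of 2860 bases in common, and the 21 gamma entries have 3 exons of 2116 bases in common. The deposited values could be turned back into whole reads for all 57 entries, and in each library every member of a cluster carried at least the same minimum number of reads. Over all libraries, that minimum made up a median of 99.09% of an alpha member's reads (from 57.3% for Pcdhac2 to 99.94%) and 98.11% of a gamma member's reads (from 68.29% for Pcdhgc3 to 99.62%). A value of Pcdha3 or Pcdhga9 in the table is therefore almost wholly a measure of its cluster.

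For this reason each cluster was described by its shared exons, meaning the minimum over its members per 2860 or 2116 bases, and each member by its own exons, meaning the reads above that minimum per base of the rest of the gene. The own level is understated if the member at the minimum has reads of its own. This split was made after the data had been seen. Over the 79 libraries the alpha shared exons held 1695 reads and the gamma shared exons 50283. Own reads were most abundant for Pcdhgc3 (23348), followed by Pcdhga11 (2078), Pcdhga1 (1989), Pcdhga7 (1726) and Pcdhga2 (1378), and among the alpha members for Pcdhac2 (1263). Of the values of 1 to 20 recovered reads, 81.4% were odd, and the cause was not tested, so a recovered read may not be 1 independent molecule. Pcdhgb1 and Pcdhga4 overlap by a further 1038 bases and Pcdhgb4 and Pcdhga8 by 108, so their own levels are uncertain.

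Changes were tested with limma on log2(RPKM + 0.5) over the 15267 genes that reached 1 RPKM in 2 or more libraries. A change was called where its log2 size was 1 or more and its Benjamini-Hochberg adjusted p was below 0.05, and only called changes are said to rise or fall. The added 0.5 understates the change of low genes. Of the 57 entries 34 were tested (13 alpha and 21 gamma), and no beta member passed the level filter. The shared exons and 12 sets of own exons (Pcdhac2 and 11 gamma members) also passed it and were tested in a fit of 15281 features.

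**Figure D1:**
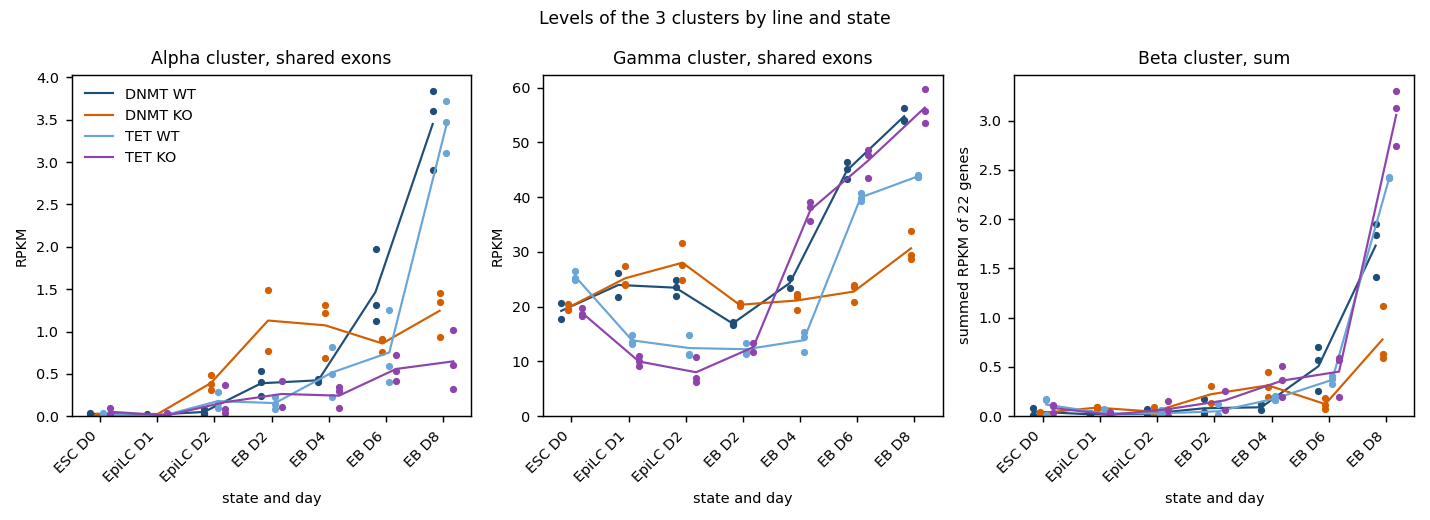
RPKM of the alpha shared exons (left), of the gamma shared exons (middle) and the summed RPKM of the 22 beta genes (right), against state and day. Each point is a library and each line joins the group means of 1 of the 4 lines; the alpha and beta levels lie near 0 in ESCs and are highest at EB day 8, while the gamma level lies between 17.8 and 26.6 already in ESCs.

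The alpha cluster was almost silent in ESCs and rose in embryoid bodies of all 4 lines. Its shared exons had at most 0.0964 RPKM in any ESC library. In DNMT KO ESCs they had no read in any of the 3 libraries. If reads are independent, this allows up to 0.0324 RPKM (3 reads over the group, counting error only). At EB day 8 they stood at 2.90, 3.60 and 3.84 RPKM in DNMT WT and at 3.73, 3.10 and 3.47 in TET WT. The knockouts were lower, at 1.45, 0.940 and 1.34 in DNMT KO and at 0.323, 0.602 and 1.02 in TET KO. Neither knockout overlapped its parental line.

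From ESC to EB day 8 the alpha shared exons rose by 2.89 ± 0.18 (log2, SE) in DNMT WT, 1.79 ± 0.16 in DNMT KO, 2.91 ± 0.16 in TET WT and 1.01 ± 0.16 in TET KO. Of the 34 members tested in the table, 34 rose in DNMT WT (23.3% of all tested genes were called higher), 13 in DNMT KO (16.8%), 14 in TET WT (20.3%) and 21 in TET KO (18.4%). All 13 alpha members were among those that rose in DNMT WT, DNMT KO and TET WT. In TET KO the members that rose were all gamma members, and the alpha shared exons were under the size limit without TET KO EB day 8 replicate 3 (0.79) and without TET KO ESC replicate 1 (0.98) or 2 (0.98).

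The difference between the knockouts and their parental lines at EB day 8 was called for the alpha shared exons in both. It was -1.183 ± 0.194 in DNMT KO (adjusted p = 0.000124) and -1.82 ± 0.19 in TET KO (adjusted p = 4.97e-06). In the table, 9 alpha members and Pcdhgc3 fell in DNMT KO, beside 9.1% of all tested genes called lower. The largest alpha changes were those of Pcdhac2 at -1.20, Pcdha5 at -1.03, Pcdha3 at -1.02, and Pcdha2 and Pcdha9 at -1.01 each. In TET KO all 13 alpha members and no gamma member fell, beside 4.14% of genes called lower, with Pcdhac2 at -1.81 and Pcdha5 at -1.50 in the lead. These members do not count as separate observations, since they share their reads. The DNMT KO count rests on changes close to the size limit, and fell to 2 without DNMT WT replicate 3 or DNMT KO replicate 2 and to 3 without DNMT WT replicate 2. With 1 added to RPKM in place of 0.5, the alpha shared exons of DNMT KO stood at -0.99, under the size limit.

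At EpiLC day 2, EB day 2 and EB day 4 the DNMT KO libraries lay above those of DNMT WT, and no difference was called with 0.5 added to RPKM. With 0.1 added, or with limma-voom, members were called in DNMT KO at each of these times. At EpiLC day 2 their alpha shared exons stood at 0.383, 0.487 and 0.307 RPKM, all above the 0.0900, 0.0352 and 0.0275 of DNMT WT, a difference of 0.69 ± 0.17 (adjusted p = 0.0213) that is under the size limit. At EB day 2 they stood at 0.774 and 1.48 against 0.237, 0.402 and 0.528, a difference of 0.85 ± 0.24 (adjusted p = 0.0642). At EB day 4 they stood at 1.22, 1.31 and 0.689 against 0.440 and 0.410, a difference of 0.74 ± 0.24 (adjusted p = 0.0401). At EB day 6 the order was the opposite, at 0.912, 0.905 and 0.761 against 1.31, 1.97 and 1.12, a difference of -0.51 ± 0.23 that was not called (adjusted p = 0.0636). In ESCs and at EpiLC day 1 the DNMT KO libraries had no read. At EB day 4 TET KO stood at 0.293, 0.0940 and 0.343 against 0.820, 0.225 and 0.504 in TET WT, which overlapped. The DNMT effect exceeded the TET effect there by 1.17 ± 0.32 (adjusted p = 0.0103), which fell to 0.96 without TET WT replicate 1.

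Pcdhac2, the C-type isoform known from the spacing of serotonergic axons, carried most of the alpha signal outside the shared exons at EB day 8. Its own exons made up 64.9% to 98.1% of the summed own level of the alpha members in the 12 EB day 8 libraries. Its own level there was 2.77, 2.92 and 3.07 RPKM in DNMT WT and 2.69, 2.96 and 2.45 in TET WT. It was 1.10, 0.799 and 1.01 in DNMT KO and 0.637, 0.298 and 0.255 in TET KO. The fall was -1.22 ± 0.15 in DNMT KO (adjusted p = 8.24e-06) and -1.86 ± 0.15 in TET KO (adjusted p = 3.9e-07), and the DNMT value was -0.996 with 1 added in place of 0.5.

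The parental lines differed in timing at this gene. At EB day 6 the own level of Pcdhac2 was 1.62, 1.94 and 1.47 RPKM in DNMT WT but 0.243, 0.444 and 0.385 in TET WT. DNMT KO stood at 0.369, 0.506 and 0.523, a fall of -1.17 ± 0.24 (adjusted p = 0.000781; -0.87 with 1 added). In DNMT KO it was already 0.858 and 0.887 at EB day 2, against 0.0641, 0.190 and 0.147 in DNMT WT, a rise of 1.12 ± 0.15 (adjusted p = 0.00432). With 1 added in place of 0.5 it stood at 0.73. This was the 1 call among the 14 shared and own features at EB day 2, where 1.15% of features were called. Pcdhac1, the other alpha C-type member, did not exceed 0.0773 RPKM of its own in any library. Among the random-choice members, Pcdha12 had the most own reads (107), and at EB day 4 it stood at 0.407, 0.370 and 0.478 RPKM in DNMT KO and at 0.237 and 0.0728 in DNMT WT, and its own exons did not pass the level filter.

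The gamma cluster was expressed in every state. Its shared exons stood at 17.8 and 20.7 RPKM in DNMT WT ESCs, at 19.4, 19.6 and 20.5 in DNMT KO, at 26.6, 24.8 and 25.3 in TET WT and at 19.8, 18.3 and 18.7 in TET KO. By EB day 8 they were 56.2, 54.1 and 54.0 in DNMT WT, 29.5, 33.9 and 28.6 in DNMT KO, 43.7, 43.7 and 44.0 in TET WT and 55.8, 59.7 and 53.5 in TET KO. DNMT KO was the lowest line at that time and overlapped none of the other 3. From ESC to EB day 8 the gamma shared exons rose by 1.49 ± 0.07 in DNMT WT and 1.55 ± 0.06 in TET KO. The differences in DNMT KO (0.61 ± 0.06) and TET WT (0.77 ± 0.06) had small adjusted p-values (1.05e-08 and 2.02e-10) but were under the size limit.

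In EpiLCs the 2 pairs of lines went different ways. By day 2 the gamma shared exons of the TET lines had fallen by 1.02 ± 0.14 (TET WT) and 1.22 ± 0.14 (TET KO), to 11.4, 11.2 and 14.8 and to 7.04, 10.8 and 6.24 RPKM. In the DNMT lines they stood at 24.8, 23.6 and 22.03 (WT) and at 31.6, 24.9 and 27.6 (KO), with differences of 0.28 and 0.48 that were not called. Of the gamma members in the table, 21 fell in TET KO (16.7% of genes called lower) and 5 in TET WT (15.8%), while none was called in DNMT WT (9.14%) or DNMT KO (7.65%). Both TET calls ended when libraries were centred on their median gene (-0.72 and -0.89), and the TET WT call also without TET WT ESC replicate 1 (-0.99) or EpiLC replicate 1 (-0.96) or 2 (-0.95). How the parental lines differ in origin is not given in the labels, and a difference between lines and a difference between experiments cannot be told apart.

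At EB day 4 TET KO had the highest gamma level of the 4 lines, with no overlap. Its shared exons stood at 38.3, 35.7 and 39.0 RPKM, against 14.5, 11.8 and 15.3 in TET WT, 23.4 and 25.2 in DNMT WT and 21.9, 19.3 and 22.2 in DNMT KO. The rise over TET WT was 1.42 ± 0.13 (adjusted p = 1.74e-07), and 1.31 without the library rich in Gm42418. All 21 gamma members rose in the table, with changes from 1.32 to 1.71, beside 7.6% of genes called higher. The DNMT effect was lower than the TET effect by 1.62 ± 0.19 (adjusted p = 6.02e-06). By EB day 6 TET WT had reached 39.2, 40.8 and 39.8 and TET KO 48.6, 43.5 and 47.6, a difference of 0.22 ± 0.06 that was not called.

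Mesoderm markers also differed between the TET lines at EB day 4. The summed mesoderm level in TET WT at EB day 4 lay between 31.4 and 45.4 RPKM and that in TET KO between 655 and 682, and 5 of 8 markers rose, beside 7.6% of all genes. In TET KO the sum was carried by T (mean 394 RPKM), Mixl1 (186) and Eomes (77.3), and each other mesoderm marker averaged 9.91 RPKM or less. Mesp1 and Meox1 had no read in TET WT. Neural progenitor markers were lower, at 23.9 to 26.9 against 39.3 to 57.9, with 3 of 6 called lower, beside 1.87% of all genes. Hes5, Olig2 and Neurog2 had no read in the TET KO libraries. At EB day 4, T averaged 29.3 RPKM in DNMT WT and 1.17 in DNMT KO, and Eomes 61.9 and 3.36. Mixl1 and Mesp1 also had lower means in DNMT KO, while Kdr, Hand1, Tbx6 and Meox1 had higher means. None of the 11 gamma members tested on their own exons was called in DNMT KO at that time. The part of the cell mixture in the gamma change was not tested.

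**Figure D2:**
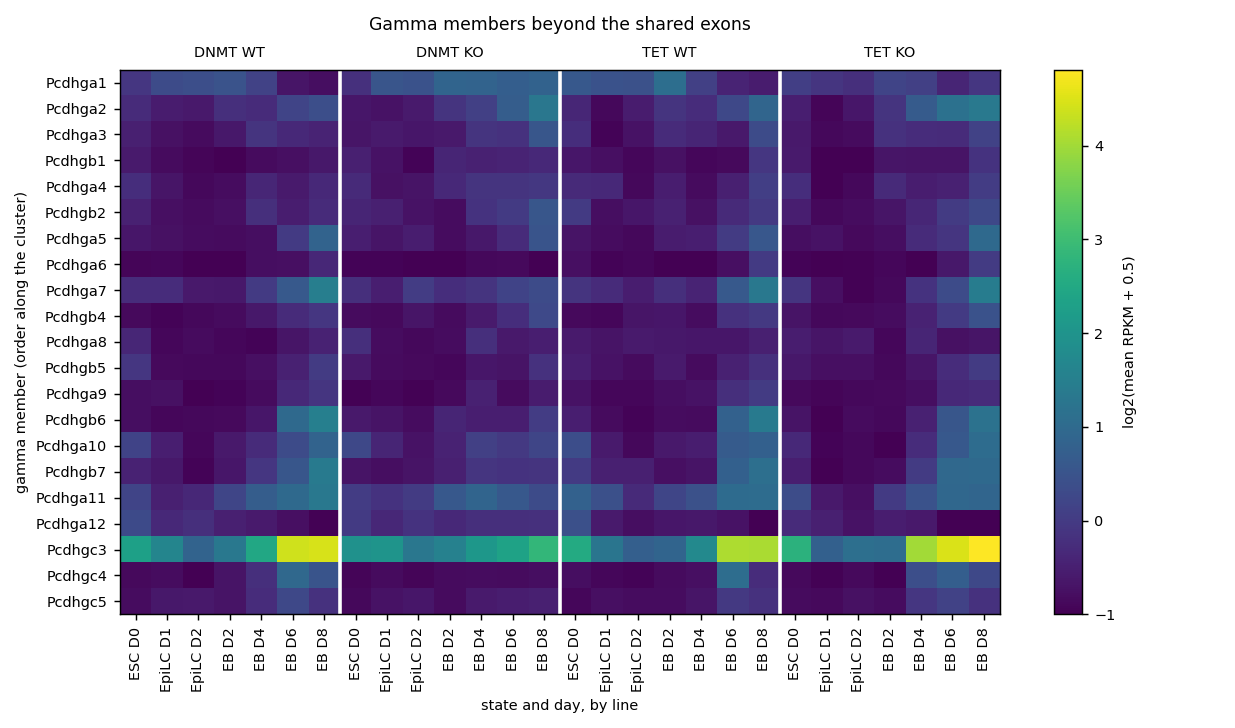
Level of each of the 21 gamma members in its own exons, as log2(mean RPKM + 0.5) by colour, with members in their order along the cluster from top to bottom and the 28 groups from left to right. Pcdhgc3 is the brightest member in every group but TET WT EB day 2, and Pcdhga1 dims towards EB day 8 in the parental lines but not in DNMT KO. The Pcdhga1 fall from ESC to EB day 8 was called in TET WT, and its changes in DNMT WT and TET KO were not called.

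Pcdhgc3, a C-type member known to act in dendrite branching of cortical neurons, had the highest own level of the gamma members by group mean in every group but TET WT EB day 2, where Pcdhga1 was higher (1.75, 1.61 and 1.57 against 1.32, 1.52 and 1.13 RPKM). Its own exons stood at 4.58 and 4.33 RPKM in DNMT WT ESCs, 3.04, 3.37 and 3.60 in DNMT KO, 5.39, 5.72 and 4.92 in TET WT and 6.39, 5.83 and 6.22 in TET KO. At EpiLC day 2 the 12 libraries were lower, between 0.804 and 2.16. From ESC to EpiLC day 2 it fell by 1.49 ± 0.21 in DNMT WT, 1.84 ± 0.19 in TET WT and 1.61 ± 0.19 in TET KO. The DNMT KO change of -0.63 ± 0.19 was not called, and its difference from the DNMT WT change was 0.86 ± 0.28 (adjusted p = 0.0868). The gamma shared exons of DNMT WT did not follow, at 0.28 ± 0.16.

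From ESC to EB day 8 Pcdhgc3 rose by 2.14 ± 0.08 in DNMT WT, 1.53 ± 0.07 in TET WT and 2.08 ± 0.07 in TET KO, while its difference of 0.90 ± 0.07 in DNMT KO was under the size limit. Its own level at EB day 8 was 21.4, 20.8 and 22.1 RPKM in DNMT WT and 5.95, 6.73 and 7.38 in DNMT KO, from 766 to 977 and from 223 to 286 reads. It was 16.7, 16.4 and 15.9 in TET WT and 27.1, 29.8 and 25.9 in TET KO. The fall in DNMT KO was -1.61 ± 0.07 (adjusted p = 5.9e-10). The TET KO difference of 0.73 ± 0.07 (adjusted p = 2.12e-06) pointed the other way without reaching the size limit. The effects of the knockouts differed by -2.35 ± 0.10 (adjusted p = 1.73e-09).

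The gap opened at different times. At EB day 6 Pcdhgc3 stood at 20.9, 20.7 and 20.1 RPKM in DNMT WT and at 4.66, 4.84 and 4.27 in DNMT KO, a fall of -2.05 ± 0.06 (adjusted p = 4.2e-11). At EB day 4 the DNMT lines stood at 4.81 and 5.46 against 3.65, 3.50 and 4.03, which did not overlap, but the difference of -0.41 ± 0.21 was not called (adjusted p = 0.208). In TET KO it was already 14.8, 15.7 and 15.9 at EB day 4, against 2.46, 1.87 and 4.23 in TET WT, a rise of 2.31 ± 0.19 (adjusted p = 5.01e-08).

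Pcdhgc4, the isoform that neurons need for survival, fell in the same line at a lower level. At EB day 6 it stood at 1.44, 1.38 and 1.56 RPKM in DNMT WT and at 0.0268, 0.165 and 0 in DNMT KO, a fall of -1.80 ± 0.14 (adjusted p = 2.58e-07). The fall was -1.27 ± 0.14 at EB day 8 (adjusted p = 3.68e-06). In TET KO at EB day 4 it was 0.534, 0.773 and 1.13 against 0.0562, 0.0740 and 0.138, a rise of 1.13 ± 0.18 (adjusted p = 7.43e-05) that stood at 0.96 without TET KO replicate 3 and at 0.83 with centring on the median gene. The own exons of Pcdhgc5 did not pass the level filter, with EB day 8 means of 0.384 (DNMT WT), 0.215 (DNMT KO), 0.395 (TET WT) and 0.387 RPKM (TET KO).

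Of the 11 gamma members whose own exons were tested at EB day 8, 6 fell in DNMT KO (Pcdhgc3, Pcdhgc4, Pcdhgb6, Pcdhgb7, Pcdhga7 and Pcdhga11) and 1 rose (Pcdhga1), where 18.9% of features were called in either direction. Pcdhgb6, Pcdhgb7 and Pcdhgc4 stayed under 1 RPKM in all DNMT KO libraries, and so passed the level filter only through other lines. Members low in all lines, such as Pcdhga12, were not tested. The balance of falls and rises is therefore partly set by the filter. Pcdhgb6 went from 2.35, 2.33 and 2.38 RPKM in DNMT WT to 0.141, 0.663 and 0.748 in DNMT KO (-1.55 ± 0.19). Pcdhgb7 went from 2.54, 1.69 and 2.00 to 0.174, 0.449 and 0.639 (-1.51 ± 0.18). Pcdhga7 and Pcdhga11 fell by 1.159 ± 0.179 and 1.001 ± 0.133, Pcdhga11 from 1.90, 2.35 and 1.81 to 0.547, 0.950 and 0.793 RPKM. The Pcdhga11 fall lies on the size limit, and was under it without DNMT WT replicate 2 (-0.91) or DNMT KO replicate 1 (-0.87). With 1 added in place of 0.5, Pcdhga7 (-0.91), Pcdhga11 (-0.78) and Pcdhgc4 (-0.82) were under the limit too, and Pcdhgc3, Pcdhgb6 and Pcdhgb7 were not. The libraries of DNMT WT and DNMT KO did not overlap for any of the 6.

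Pcdhga1, the first gamma promoter in the order along the cluster, moved the other way. In DNMT WT, where no change from ESC to EB day 8 was called, its own level was 0.376 and 0.509 RPKM in ESCs. At EB day 8 it was 0.116, 0.0443 and 0.0774 there, from 2 to 4 reads. In DNMT KO it was 0.384, 0.284 and 0.436 in ESCs and 1.22, 1.52 and 1.05 at EB day 8, from 39 to 55 reads. The EB day 8 rise in DNMT KO over DNMT WT was 1.60 ± 0.13 (adjusted p = 1.61e-07), and the EB day 6 rise was 1.37 ± 0.17 (adjusted p = 1.51e-05). In TET WT it fell by 1.16 ± 0.13 from ESC to EB day 8 (adjusted p = 6.7e-08), from 0.871, 1.13 and 1.05 to 0.250, 0.118 and 0.175. In TET KO it had 27, 17 and 16 own reads in ESCs and 14, 17 and 20 at EB day 8, and no change was called. The TET KO response exceeded that of TET WT by 1.003, a called difference that went as low as 0.935 with 1 library left out.

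Pcdhga2 and Pcdhga3 were also higher in DNMT KO libraries at EB day 8, without overlap, but were not called. Pcdhga2 stood at 2.03, 2.02 and 1.87 RPKM in DNMT KO EB day 8 and at 0.990, 0.784 and 0.652 in DNMT WT, a difference of 0.93 ± 0.18 (adjusted p = 0.000556). Pcdhga3 stood at 1.04, 1.10 and 0.771 against 0.254, 0.249 and 0.225, a difference of 0.98 ± 0.16 (adjusted p = 0.000101). Their responses from ESC to EB day 8 were larger in DNMT KO than in DNMT WT, by 1.297 ± 0.306 and 1.179 ± 0.239 (adjusted p = 0.00112 and 0.000273), and both differences were called. The own exons of Pcdhga12, the last A-type member, did not reach 1 RPKM in any library and were not tested. It had 14, 12 and 32 own reads in DNMT KO EB day 8, and 0, 2 and 0 in DNMT WT. TET WT and TET KO had none there, which allows up to 0.0175 and 0.0184 RPKM if reads are independent.

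**Figure D3:**
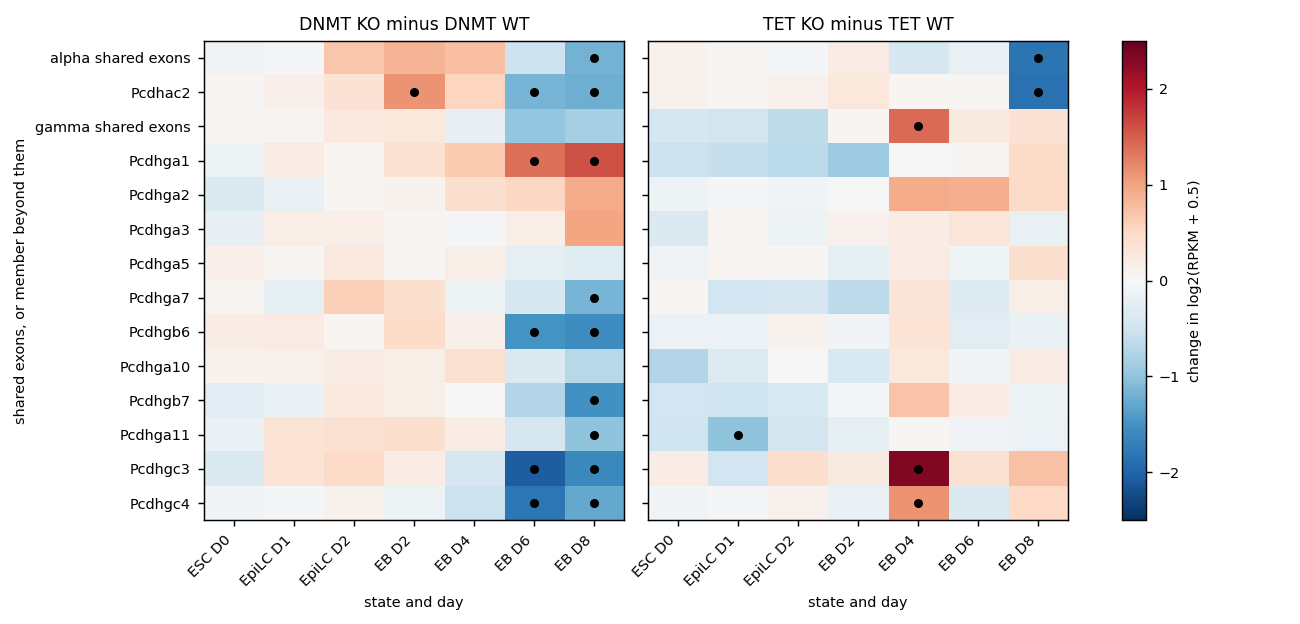
Change in log2(RPKM + 0.5) between each knockout and its parental line by colour, at the 7 states, for the 14 shared-exon and own-exon features that passed the level filter. Black dots mark called changes; the DNMT KO calls lie almost wholly at EB day 6 and day 8, and the TET KO calls at EpiLC day 1, EB day 4 and EB day 8.

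The make-up of the gamma own signal therefore differed between the lines. At EB day 8 Pcdhgc3 made up 56.5% ± 0.75 (SD, n = 3) of the summed own level of the gamma members in DNMT WT, 50.3% ± 0.66 in TET WT and 60.4% ± 2.7 in TET KO, but 35.5% ± 1.5 in DNMT KO. The A-type members made up 24.6% ± 1.1 in DNMT WT, 30.3% ± 1.9 in TET WT, 24.6% ± 1.9 in TET KO and 45.5% ± 2.0 in DNMT KO. The summed A-type level itself differed less between the DNMT lines, at 8.81, 9.51 and 9.60 RPKM in DNMT WT and 8.36, 8.58 and 8.71 in DNMT KO. In ESCs the Pcdhgc3 share was 44.7%, 41.8% and 41.8% in DNMT WT, DNMT KO and TET WT, and 57.7% in TET KO. The mean share at EB day 8 was below that of ESCs in DNMT KO and above it in the other 3 lines. No test was run on these shares.

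**Figure D4:**
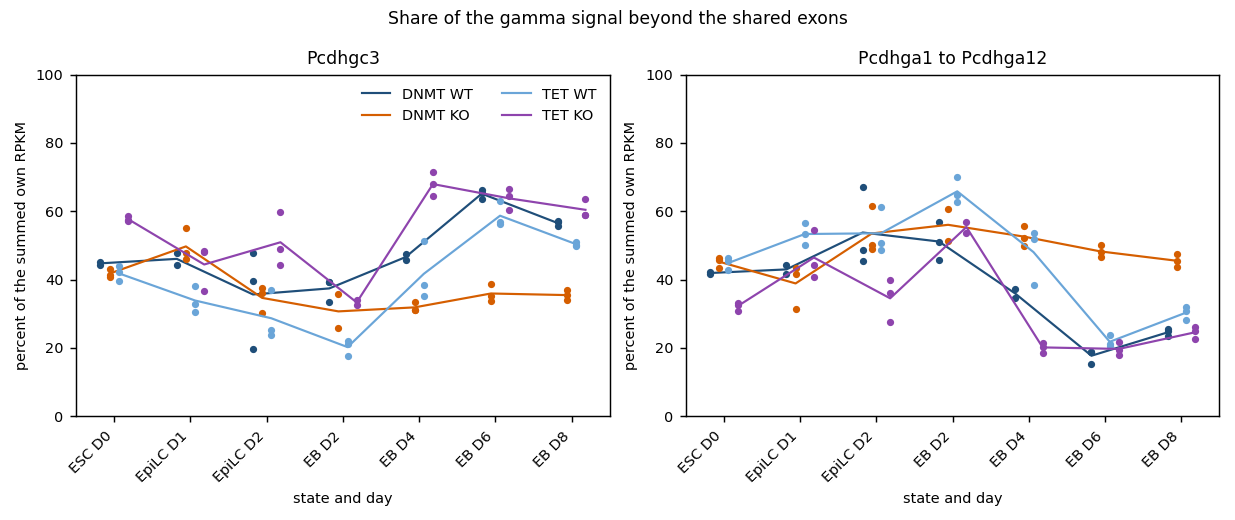
Share of the summed own-exon RPKM of the gamma cluster held by Pcdhgc3 (left) and by the A-type members Pcdhga1 to Pcdhga12 (right), in percent, by state and day. Points are libraries and lines join group means; from EB day 4 on the DNMT KO libraries have the lowest Pcdhgc3 share, between 31.1% and 38.7%, and A-type shares above 43%. At EB day 4, TET WT replicates 1 and 2 also have A-type shares above 43%.

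The summed own level was not a fixed fraction of the shared exons. At EpiLC day 2 it was 16.2% ± 2.8 of the shared level per base in DNMT WT and 20.7% ± 3.5 in DNMT KO, and at EB day 8 it was 69.2% ± 2.3 and 61.7% ± 7.2. In the TET lines it was 31.8% ± 2.0 and 43.0% ± 10.3 at EpiLC day 2 and 74.1% ± 2.3 and 81.0% ± 2.1 at EB day 8. The ratio was lower at EpiLC day 2 than at EB day 8 in all 4 lines, and the cause was not tested. Entries named Gm42416, Gm38182, Gm37013 and Gm37388 overlap the gamma shared exons by 446, 628, 91 and 91 bases, and were not analysed here.

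The beta genes were close to silent until late embryoid bodies. The 22 genes had 2054 reads over all 79 libraries, 862 of them on Pcdhb22, and Pcdhb9 had 1. Pcdhb21 ends at 37518325 and Pcdhb22 starts at 37517871, so their exons overlap. How reads on the overlap were counted is not known, and the levels of both genes are uncertain. Their summed level in ESCs had group means from 0.0315 RPKM (DNMT KO) to 0.118 (TET WT). At EB day 8 it was 1.41, 1.84 and 1.95 in DNMT WT, 0.596, 0.627 and 1.11 in DNMT KO, 2.42 in each of the 3 TET WT libraries and 3.30, 3.13 and 2.74 in TET KO. The order of the lines was DNMT KO, DNMT WT, TET WT and TET KO, with no overlap between neighbours. Between 12 and 17 beta genes had a read per DNMT WT library, 5 to 11 in DNMT KO, 15 or 16 in TET WT and 15 to 17 in TET KO.

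**Figure D5:**
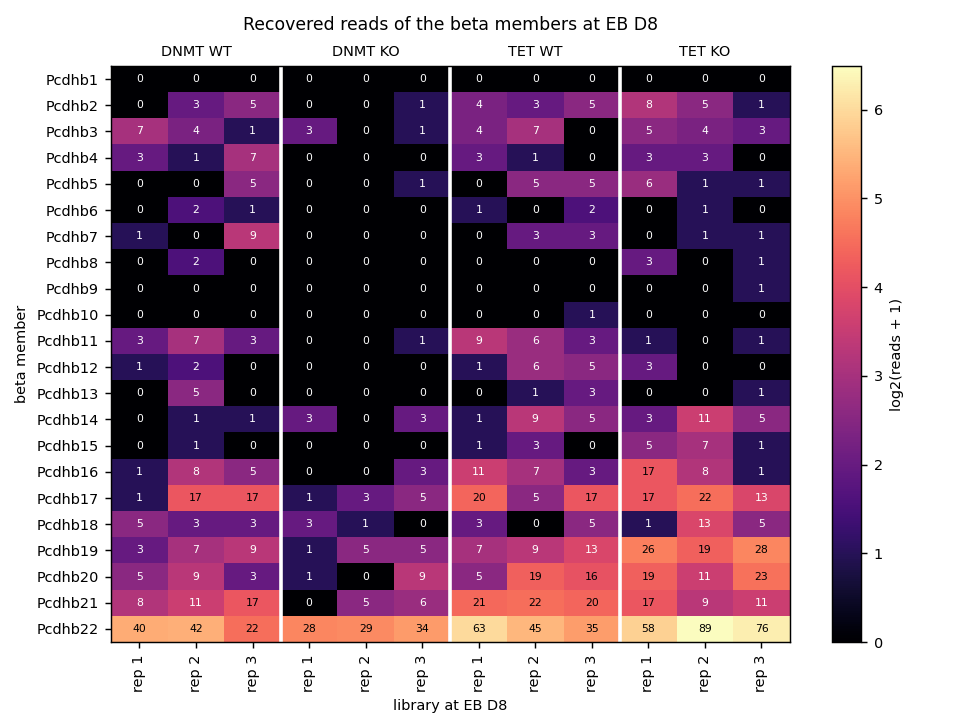
Reads of the 22 beta genes in the 12 EB day 8 libraries, as numbers and as log2(reads + 1) by colour, with genes from top to bottom in order of number. Pcdhb22 leads in every library, followed over the 12 libraries by Pcdhb21 with 147 reads, Pcdhb17 with 138 and Pcdhb19 with 132.

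Pcdhb22, the last beta gene in number, stood at 0.571, 0.458 and 0.279 RPKM in DNMT WT EB day 8, at 0.382, 0.393 and 0.449 in DNMT KO, at 0.775, 0.521 and 0.431 in TET WT and at 0.737, 1.10 and 0.985 in TET KO. The DNMT lines overlapped at this gene. Pcdhb21 stood at 0.161, 0.168 and 0.303 in DNMT WT, 0, 0.0952 and 0.111 in DNMT KO, 0.363, 0.358 and 0.346 in TET WT and 0.303, 0.157 and 0.200 in TET KO. Pcdhb20 stood at 0.133, 0.182 and 0.0707 in DNMT WT, 0.0254, 0 and 0.221 in DNMT KO, 0.114, 0.409 and 0.366 in TET WT and 0.448, 0.253 and 0.554 in TET KO. All 3 genes had a read in every EB day 8 library of the parental lines.

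Since no beta gene passed the level filter, they were also tested with limma-voom on the recovered reads of 34545 genes, a test chosen after the data had been seen. From ESC to EB day 8, 10 beta genes rose in DNMT WT (15.7% of genes higher), 4 in DNMT KO (13.3%), 10 in TET WT (14.8%) and 12 in TET KO (13.6%), and none fell. Pcdhb17, Pcdhb19, Pcdhb21 and Pcdhb22 rose in all 4 lines. Pcdhb19 was higher at EB day 8 in TET KO than in TET WT by 1.38 ± 0.40 (adjusted p = 0.033, 5.58% of genes higher), at 0.306, 0.218 and 0.336 RPKM against 0.0798, 0.0965 and 0.148. Pcdhb11 fell in both knockouts, by 2.56 ± 0.62 in DNMT KO (adjusted p = 0.0105, 6.96% of genes lower) and by 2.45 ± 0.61 in TET KO (adjusted p = 0.0156, 3.33% lower), from at most 9 reads in any library.

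At earlier times the beta calls rested on very few reads. Pcdhb2 rose in TET KO at EB day 4, at 0.0992, 0.159 and 0.254 RPKM against 0.0347, 0 and 0 in TET WT (adjusted p = 0.00386, 6.21% of genes higher). Pcdhb17 and Pcdhb22 fell in DNMT KO at EB day 6 (adjusted p = 0.00485 and 0.00913, 4.81% of genes lower). Pcdhb22 stood there at 0.283, 0.199 and 0.430 RPKM in DNMT WT and at 0.0705, 0.0435 and 0.0150 in DNMT KO. At EB day 2 Pcdhb21 was called higher in DNMT KO (0.672% of genes higher) and Pcdhb8 in TET KO (4.15%), each from at most 0.131 RPKM.

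Over the 28 group means, the genes outside the clusters whose log2(RPKM + 0.5) was most like that of the summed beta level were Arhgap31 (Pearson r = 0.984), Mef2c (0.965), Fat4 (0.963), Mecom (0.960) and Ednrb (0.959). The groups share lines and states, so these are descriptions of a common time course.

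Cell type markers differed between the lines at EB day 8, and their part in the protocadherin differences was not tested. Cardiac and mesenchyme markers summed to 357 to 394 RPKM in DNMT WT, 29.9 to 34.5 in DNMT KO, 321 to 381 in TET WT and 164 to 225 in TET KO. All 8 fell in DNMT KO, and 3 rose and 2 fell in TET KO, beside 18.9% and 9.98% of all genes called in either direction. Blood and endothelial markers summed to 3142 to 3195, 117 to 125, 4958 to 5451 and 28.6 to 38.4 in the same order, and 6 of 8 fell in DNMT KO and 8 of 8 in TET KO. Endoderm markers summed to 334 to 349, 45.7 to 52.3, 509 to 550 and 65.9 to 70.9, and most of the parental sums was Ttr, at 207 to 229 RPKM in DNMT WT, 10.3 to 11.9 in DNMT KO, 308 to 326 in TET WT and 8.02 to 9.41 in TET KO. Of 8 endoderm markers, 6 fell and 1 (Cubn) rose in DNMT KO, and 5 fell in TET KO, where Gata6, Foxa2 and Sox17 were not called. Pluripotency markers summed to 44.3 to 48.0 in DNMT WT, 778 to 791 in DNMT KO, 55.4 to 57.6 in TET WT and 138 to 178 in TET KO, and of 8 markers 6 rose in DNMT KO and 4 rose and 2 fell in TET KO. Neuron markers summed to 62.6 to 69.2 in DNMT KO, 28.1 to 35.2 in DNMT WT, 27.7 to 30.6 in TET WT and 23.1 to 26.6 in TET KO. Of 10 neuron markers 5 rose and 2 fell in DNMT KO, and 1 rose in TET KO. Each marker of these lists had a read in each line at EB day 8.

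Other members of the cadherin superfamily and the proteins that work with clustered protocadherins were followed as lists. A list of non-clustered protocadherins and related cadherins had 12 genes tested at EB day 8. Of these, 1 rose and 4 fell in DNMT KO (Cdhr1 by 2.17 ± 0.18, and Pcdh7, Dchs1, Fat4 and Celsr1 by -1.92 to -1.15), and none was called in TET KO, beside 18.9% and 9.98% of all genes. The median change of the list was -0.52 in DNMT KO and 0.21 in TET KO. At EB day 4 in TET KO, when the gamma cluster was high, Pcdh7 rose by 3.69 ± 0.16 and Pcdh18 by 1.51 ± 0.16, 2 of the 12 where 7.6% of all genes rose. Of 13 partner genes at EB day 8, Reln, the secreted ligand whose pathway uses the adaptor Dab1, fell in both knockouts, by 1.96 ± 0.10 in DNMT KO and 3.23 ± 0.10 in TET KO. Dab1 rose in both, by 1.57 ± 0.15 and 1.73 ± 0.15. Prkca and Marcks also fell in DNMT KO and Wasf1 rose in TET KO, and the other partners were not called, which makes 4 called of 13 in DNMT KO and 3 in TET KO.

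Of 15 flanking genes tested at EB day 8, 3 rose and 1 fell in DNMT KO, beside 18.9% of all genes called there, and none was called in TET KO (9.98%). Dnd1, an RNA-binding protein of germ cells that lies before the alpha cluster, rose by 2.48 ± 0.20. Taf7, a TFIID subunit between the beta and gamma clusters, rose by 1.08 ± 0.07, and Diaph1, an actin-nucleating formin just after the gamma cluster, rose by 1.32 ± 0.06. Cd14, a lipopolysaccharide co-receptor before the alpha cluster, fell by 2.20 ± 0.24. All 16 germline genes known to be silenced by methylation were tested, and 14 rose in DNMT KO and 4 in TET KO, beside 9.76% and 5.84% of all genes called higher.

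Of 20 chromatin regulators known to act on these promoters and tested at EB day 8, 3 were called in DNMT KO and 1 in TET KO, beside 18.9% and 9.98% of all genes. Dnmt1 and Dnmt3a fell in DNMT KO, but they are deleted there, so their calls were set by the design and say nothing about the list. Among the regulators not deleted, only Hells was called in DNMT KO, and it rose by 1.43 ± 0.05. Dnmt3b rose in TET KO by 1.90 ± 0.11. Ctcf differed by 0.24 ± 0.05 in DNMT KO and -0.10 ± 0.05 in TET KO, and Smchd1, a repressor of clustered protocadherins, by 0.43 ± 0.06 and 0.48 ± 0.06. Neither was called. Dnmt3b differed by -0.92 ± 0.11 in DNMT KO, where it is deleted too.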

How the data were processed

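The authors deposited 1 table of log2 RPKM per gene and library. The tools named in the submitters' processing notes are HISAT2 2.1.0 (aligner, genome build GRCm38), Trim Galore 0.6.1 and cutadapt 1.18 (trimmers). The counting tool is not given in the sources used here, nor is the annotation. A column of DNMT WT EpiLC day 1 is numbered replicate 3 where the labels have replicates 1 and 2, so it was matched to its group only and given no number. Members were taken by name, and members and gene lists were chosen with earlier results of these data known. Whole reads were recovered from the steps of the low values: 97.2% of values of 1 to 100 reads lay within 0.1 of a whole number, with a gene without a read written as 0.9 reads. In the shallowest library 1 read on a gene of 2 kb is worth 0.0644 RPKM. Intervals and limits cover counting error only and take reads as independent, so the limits are too low if recovered reads come in groups.

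Linear models were fitted with limma 3.58.1 in R 4.3.3 on log2(RPKM + 0.5), with no replicate block. Each knockout comparison was fitted with all 4 lines of its state, and each response with all 4 lines at both of its states. The SE and p-values therefore rest on a spread shared with the lines that are not compared. Summaries used Python 3.11.15 with numpy 2.4.6 and pandas 2.3.3, and figures matplotlib 3.10.9. Entries that repeat an identifier (39) were left out, the one with the highest mean being kept. The method was tested on simulated data. Alternatives were the pseudocount, the level filter, the size threshold, median centring, quantile normalization, limma-voom, a joint fit of all groups, a replicate block and leaving out each library. The split into shared and own exons and limma-voom on all recoverable genes were chosen after the data had been seen. Named genes were the C-type members, the 3 members per cluster with the highest mean RPKM and at most 5 called members whose change was largest, all chromatin regulators and flanking genes that were called, and up to 4 called genes of other lists; further members, and Ctcf and Smchd1, were named after their values were seen. Sequences of the members were not analysed here.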

Additional observations from a re-analysis of the deposited data

Results flagged for a closer look

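The knockouts were compared in their effects, as the DNMT difference minus the TET difference on the log2(RPKM + 0.5) scale for shared-exon and own-exon features, and the called differences are given here. At EpiLC day 1 and day 2 these were Pcdhga11 (1.349) and Pcdhga7 (1.017). At EB day 2 they were Pcdhga1 (1.294) and Pcdhga7 (1.062). At EB day 4 they were the alpha shared exons (1.168), the gamma shared exons (-1.618), Pcdhgc3 (-2.729) and Pcdhgc4 (-1.671). At EB day 6 they were Pcdhac2 (-1.204), the gamma shared exons (-1.184), Pcdhga1 (1.336), Pcdhgb6 (-1.243), Pcdhgc3 (-2.425) and Pcdhgc4 (-1.452), and the Pcdhac2 value was not called with limma-voom (-1.51, adjusted p = 0.0739).

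At EB day 8 they were the gamma shared exons (-1.188), Pcdhga1 (1.134), Pcdhga3 (1.172), Pcdhga7 (-1.304), Pcdhgb6 (-1.384), Pcdhgb7 (-1.371), Pcdhgc3 (-2.348) and Pcdhgc4 (-1.768). The alpha shared exons were not among them at that time (0.64, adjusted p = 0.06).

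The response from ESC to EB day 8 also differed between knockout and parental line. In the DNMT lines these were the alpha shared exons (-1.098), Pcdhac2 (-1.256), Pcdhga1 (1.717), Pcdhga2 (1.297), Pcdhga3 (1.179), Pcdhga7 (-1.222), Pcdhgb6 (-1.734), Pcdhgb7 (-1.246), Pcdhgc3 (-1.242) and Pcdhgc4 (-1.207). In the TET lines they were the alpha shared exons (-1.903), Pcdhac2 (-1.959) and Pcdhga1 (1.003). With limma-voom on recovered reads the DNMT values of the alpha shared exons (-0.02, adjusted p = 0.997), Pcdhac2 (-2.21, adjusted p = 0.0832) and Pcdhgb7 (-1.38, adjusted p = 0.12) were not called. Without DNMT KO EB day 8 replicate 2 the DNMT value of the alpha shared exons was -0.97. Without the libraries left out in turn, the TET value of Pcdhga1 went as low as 0.94.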

How the results depend on the processing

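No call on shared or own exons reversed. Of 100 such calls, 47 ended with 1 added in place of 0.5, 19 with centring, 19 with quantile normalization and 4 with limma-voom. A call ended where the size or the adjusted p no longer met its limit. Leaving out 1 library ended a call in 37 fits and kept it in 735. Centring on the median gene moved all changes by -0.31 (DNMT WT, ESC to EB day 8) to 0.33 (TET KO, ESC to EpiLC day 2). Same-numbered libraries had correlations of -0.24 to 0.29. With 2 or 3 libraries per group, these cannot settle whether the replicate numbers pair the libraries. The replicate block changed 1 count, that of the DNMT response difference at EB day 8, to 2. The cause of the 4 calls that limma-voom ended was not tested. No beta gene was testable on the RPKM scale, so depth limits what can be said of it.

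Members called moved by over 1.5 times as follows, with the cause not tested beyond the changed setting. With no size threshold the counts at ESC were 21 (TET KO effect) and 20 (difference of effects), at EpiLC day 1 21 and 21, at EpiLC day 2 13 (DNMT KO), 20 (TET KO) and 23 (difference), at EB day 2 1 (DNMT KO) and 1 (difference), at EB day 4 6 (DNMT KO) and 34 (difference), at EB day 6 22 (DNMT KO) and 21 (TET KO), and at EB day 8 34 (DNMT KO) and 34 (TET KO). For responses they were 33 (DNMT KO) and 22 (TET WT) at EpiLC day 2, 34 in DNMT KO, TET WT and TET KO at EB day 8, and 34 for both response differences.

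With a pseudocount of 0.1 they were 13 (DNMT KO effect) and 12 (difference) at EpiLC day 2, 1, 2 and 4 for the DNMT KO effect at EB day 2, 4 and 6, 13 (DNMT KO) and 20 (TET WT) for the EpiLC day 2 response and 34 for the TET KO response at EB day 8. With a pseudocount of 1, the DNMT KO effect at EB day 6 and day 8, the TET WT response at EpiLC day 2, the DNMT KO response and the DNMT response difference at EB day 8 each had 1. With centring the DNMT KO effect and the difference of effects at EB day 8 had 2 each, the EpiLC day 2 response 0 (TET WT) and 1 (TET KO), and the DNMT KO response and response difference at EB day 8 1 each. With quantile normalization the DNMT KO effect at EB day 6 had 5, the EpiLC day 2 response 0 (TET WT) and 1 (TET KO), and the DNMT KO response at EB day 8 1.

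With limma-voom the counts were 1 for the difference at ESC, 13 for the DNMT KO effect and the difference at EpiLC day 2, 1, 9 and 5 for the DNMT KO effect at EB day 2, 4 and 6, 34 and 33 for the difference at EB day 4 and 8, 13 (DNMT KO) and 33 (TET WT) for the EpiLC day 2 response, 12 for the DNMT response difference there, 34 for the TET KO response at EB day 8 and 1 for the DNMT response difference at EB day 8. Leaving out 1 library gave 0 to 17 for the difference at EpiLC day 2, 0 to 1, 1 to 3 and 2 to 14 for the DNMT KO effect at EB day 2, 6 and 8, 1 to 21 for the TET WT response at EpiLC day 2 and 2 to 14 for the DNMT response difference at EB day 8. Centred levels at EB day 8 were 2.95 RPKM (alpha shared, DNMT WT and TET WT), 46.9, 26.9, 37.7 and 43.4 (gamma shared, DNMT WT, DNMT KO, TET WT and TET KO) and 2.08 and 2.36 (summed beta, TET WT and TET KO), and in ESCs 20.88 and 17.96 (gamma shared, DNMT KO and TET KO).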
